A study of Homo sapiens with 4 samples.

Results

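H3K27ac, the acetylation of lysine on histone H3 that marks active promoters and enhancers, was examined at the genes of WNT ligands, their receptors and their inhibitors in SK-N-BE(2)C, a *MYCN*-amplified neuroblastoma (NB) cell line. The genes were chosen by symbol from the protein-coding genes of chromosomes 1 to 22, as 19 WNT ligands, 10 Frizzled receptors, 4 co-receptors (*LRP5*, *LRP6*, *ROR1*, *ROR2*), 4 R-spondins, 3 R-spondin receptors (*LGR4*, *LGR5*, *LGR6*), 10 secreted inhibitors and 3 genes of the nuclear response (*AXIN2*, *LEF1*, *TCF7*). They make up 53 of 19111 genes. The rule that chose them uses no measured value, but it was set with earlier results of these data known. Control cells (sgCtrl) carried Cas9 with a non-targeting guide RNA and are labelled wildtype. *SNHG1*-depletion cells (sgSNHG1) carried Cas9 with guide RNAs against the locus of the long non-coding RNA gene *SNHG1* and are labelled as its knockout, although the study describes the loss of its RNA as incomplete. Both groups share the parental line and are described as transfected. The study's methods describe puromycin selection for the *SNHG1*-depletion cells and do not state it separately for the control. The *SNHG1*-depletion clones came from sorted single cells, and the control is described as a clone. Which *SNHG1*-depletion clone was used for ChIP-seq is not named in the sources used here. A difference between the clones and an effect of *SNHG1* therefore cannot be told apart. There were 2 ChIP-seq samples per group.

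In canonical WNT signalling, a secreted WNT ligand bridges a Frizzled receptor and LRP5 or LRP6, β-catenin escapes degradation, and factors of the TCF/LEF family switch on target genes such as *AXIN2*. ROR1 and ROR2 are receptor kinases of the non-canonical branch, which does not use β-catenin. R-spondins, bound by LGR4, LGR5 and LGR6, keep Frizzled receptors on the cell surface, whereas Dickkopf proteins block LRP5 and LRP6, and the SFRP proteins, FRZB and WIF1 capture WNT ligands outside the cell. The sympathoadrenal lineage from which NB arises comes from the neural crest, whose induction and migration depend on WNT signalling.

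The deposited data are 2 peak lists, 1 per group, each called by the authors on the combined samples of that group. No value per sample was used here, so differences between the lists have no replicate check and no test, and the depth of each sample is unknown. Each peak has a fold enrichment, the ratio of its summit to the local background around it. The number of fragments over the summit was worked out from the fold enrichment and the p-value. The window of a gene spans its body with 10 kb added at each end, and its percentile is the rank of its highest fold enrichment among all peaks of the same list. For a peak found in both lists, the relative log2 ratio is the log2 ratio of summit fragments, sgSNHG1 over sgCtrl, less its median of -0.20 over all 38677 shared peaks. This relative ratio had a median of 0.20 over all shared peaks within 3 kb of an annotated start and of -0.11 over other shared peaks. Intervals beside a relative ratio (95%) cover the counting of fragments only. Chromosomes 1 to 22 held 63051 peaks in sgCtrl and 49412 in sgSNHG1, or 0.784 peaks for each sgCtrl peak. A start-site peak (within 3 kb of an annotated start) stood in both lists at each of the 8 adrenergic markers examined, namely *TH*, *DBH*, *HAND2*, *GATA3*, *ISL1*, *PHOX2A*, *CHGA* and *CHGB*. Of the 8 markers of blood, endothelial, epithelial and fibroblast cells, *CDH5* and *EPCAM* had one in both lists and *COL1A1* in sgCtrl. The body of *SNHG1* held 1 peak in sgCtrl and 0 in sgSNHG1.

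The stretches of 300 bp around 8 summits that the results below turn on were read from the plus strand of the GRCh38 reference. They comprise the *ROR2* start-site peak with the highest relative log2 ratio, the highest *LRP5* peak and the intronic *LRP5* peak with the lowest ratio, an intronic *ROR1* peak present in sgCtrl alone, an intronic *LGR5* peak, and peaks at *WNT9A*, *DKK1* and *DKK2* that only 1 list held. Capitals mark a searched motif. In the *LGR5* window it is the TCF/LEF sequence CTTTGAA, which lies on the minus strand and is therefore printed as its reverse complement. In the *WNT9A* window it is CACGTG, the E-box bound by MYC family proteins. In the *DKK1* window it is AGATAA, a sequence that transcription factors such as GATA3 bind. The other windows hold no match to any motif searched.
*ROR2* (sgSNHG1 list) chr9:91949345-91949644: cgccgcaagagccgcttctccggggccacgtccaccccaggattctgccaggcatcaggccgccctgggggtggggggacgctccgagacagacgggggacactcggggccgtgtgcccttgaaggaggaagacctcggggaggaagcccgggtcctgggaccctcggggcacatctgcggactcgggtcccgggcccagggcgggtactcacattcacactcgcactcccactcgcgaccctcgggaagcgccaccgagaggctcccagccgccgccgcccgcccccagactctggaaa
*LRP5* (sgCtrl list) chr11:68312890-68313189: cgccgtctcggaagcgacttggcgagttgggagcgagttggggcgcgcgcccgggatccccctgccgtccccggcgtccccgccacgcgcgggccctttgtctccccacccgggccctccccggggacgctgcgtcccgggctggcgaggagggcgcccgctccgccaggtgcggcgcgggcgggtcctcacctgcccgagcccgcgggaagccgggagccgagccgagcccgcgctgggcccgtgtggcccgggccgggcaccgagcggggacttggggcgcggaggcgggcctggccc
*LRP5* (sgCtrl list) chr11:68412658-68412957: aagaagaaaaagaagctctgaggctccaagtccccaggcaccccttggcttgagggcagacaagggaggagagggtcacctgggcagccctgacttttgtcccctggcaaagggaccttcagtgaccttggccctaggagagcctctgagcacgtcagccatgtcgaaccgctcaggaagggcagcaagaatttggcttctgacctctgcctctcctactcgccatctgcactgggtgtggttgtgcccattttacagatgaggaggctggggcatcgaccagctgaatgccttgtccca
*ROR1* (sgCtrl list) chr1:63842987-63843286: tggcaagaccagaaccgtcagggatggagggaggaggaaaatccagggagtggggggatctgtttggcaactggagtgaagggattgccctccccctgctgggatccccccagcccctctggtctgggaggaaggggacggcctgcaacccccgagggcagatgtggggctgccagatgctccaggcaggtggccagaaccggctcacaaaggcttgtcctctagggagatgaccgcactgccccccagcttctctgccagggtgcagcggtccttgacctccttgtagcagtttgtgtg
*LGR5* (sgCtrl list) chr12:71563183-71563482: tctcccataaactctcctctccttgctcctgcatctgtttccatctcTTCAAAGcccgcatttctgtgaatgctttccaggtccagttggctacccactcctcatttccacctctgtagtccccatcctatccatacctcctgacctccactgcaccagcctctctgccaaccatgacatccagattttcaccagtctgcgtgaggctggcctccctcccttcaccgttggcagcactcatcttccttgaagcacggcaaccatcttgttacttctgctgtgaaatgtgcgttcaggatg
*WNT9A* (sgSNHG1 list) chr1:227945305-227945604: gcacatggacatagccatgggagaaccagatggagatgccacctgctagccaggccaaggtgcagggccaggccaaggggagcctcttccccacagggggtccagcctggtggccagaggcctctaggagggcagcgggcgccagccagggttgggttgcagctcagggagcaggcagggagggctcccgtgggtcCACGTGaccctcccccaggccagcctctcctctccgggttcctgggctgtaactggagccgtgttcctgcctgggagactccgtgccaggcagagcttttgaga
*DKK1* (sgCtrl list) chr10:52314719-52315018: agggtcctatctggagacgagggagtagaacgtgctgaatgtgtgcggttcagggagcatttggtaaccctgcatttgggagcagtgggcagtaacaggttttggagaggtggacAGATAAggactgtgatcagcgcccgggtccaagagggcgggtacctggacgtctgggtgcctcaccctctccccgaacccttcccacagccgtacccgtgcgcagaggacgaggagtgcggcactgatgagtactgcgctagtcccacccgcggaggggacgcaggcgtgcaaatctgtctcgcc
*DKK2* (sgCtrl list) chr4:107270384-107270683: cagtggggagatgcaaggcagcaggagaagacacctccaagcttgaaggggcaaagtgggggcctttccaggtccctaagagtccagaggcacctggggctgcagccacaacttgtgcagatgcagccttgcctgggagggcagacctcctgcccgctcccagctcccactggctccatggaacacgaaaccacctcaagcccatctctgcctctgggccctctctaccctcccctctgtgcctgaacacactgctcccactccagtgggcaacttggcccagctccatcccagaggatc

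Peaks stood at a somewhat lower share of these genes than of all protein-coding genes, a difference within or at the edge of the counting intervals, and most genes that had a peak had it in both lists. In sgCtrl 39 of the 53 genes had at least 1 peak in the window (73.6%, Wilson 95% interval 60.4 to 83.6, against 81.2% of all genes), and in sgSNHG1 36 did (67.9%, interval 54.5 to 78.9, against 79.1%). Peaks were listed in sgCtrl but not in sgSNHG1 for 3 genes, all of them Dickkopf inhibitors (*DKK1*, *DKK2* and *DKK4*), which is 5.66% of the genes against 4.25% of all genes. No gene had peaks in sgSNHG1 alone, against 2.14% of all genes. A peak lay at a start site of 31 genes in sgCtrl and of 30 in sgSNHG1 (58.5% and 56.6%, against 69.4% and 67.6% of all genes). Start-site peaks were listed only in sgCtrl at *DKK1*, *FZD9* and *WNT11* (5.66%, against 4.93%) and only in sgSNHG1 at *WNT6* and *WNT9A* (3.77%, against 3.18%). The shares of genes with a peak in 1 list only are close to those of all genes.

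The windows held 214 peaks in sgCtrl and 187 in sgSNHG1, a ratio of 0.874 against the 0.784 of all peaks, and they covered 117556 and 92776 bp. *LRP5* alone supplied 48 and 49 of these peaks, and without it the ratio was 0.831. Of the 53 genes, 16 had more peaks in sgCtrl (30.2%, against 38.4% of all genes) and 9 had more in sgSNHG1 (17.0%, against 15.1%). The median percentile over the 36 genes with a peak in both lists was 75.4 in sgCtrl and 75.4 in sgSNHG1, below the 87.3 and 86.4 of all genes. The median change was 0.48 percentile points, against -0.71 for the 14702 genes with a peak in both lists. The sign of the former turned under 5 other settings. For the percentile of the summit fragments it was -1.05, against -0.03 for all genes. The percentile was higher in sgSNHG1 for 20 of the 36 genes (55.6%, against 40.5%). It was higher by 20 points or more for 1 gene (*WNT9A*, 2.78%, against 2.43%) and lower by as much for 1 gene (*LGR6*, 2.78%, against 4.62%).

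**Figure D1:**
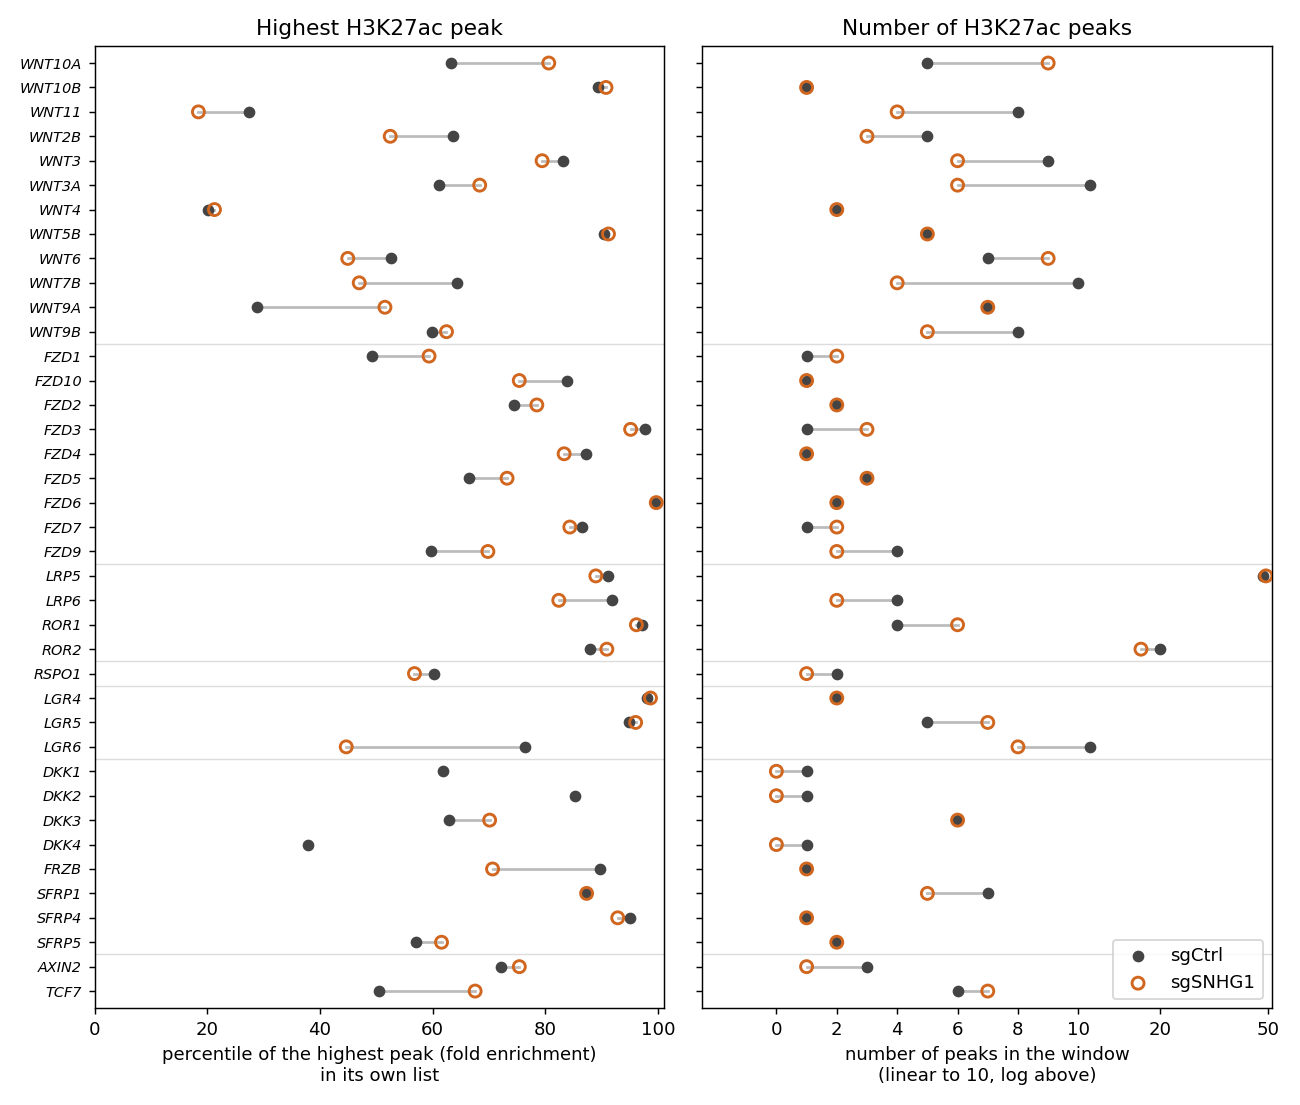
The left panel shows for each gene with a peak the percentile of its highest peak by fold enrichment within its own list, and the right panel the number of peaks in the window, with filled points for sgCtrl and open points for sgSNHG1 (1 pooled list each). *FZD6* stands at the right edge with 99.4 and 99.7, *LGR6* spans the longest line from 76.3 to 44.7, and *LRP5* has 48 and 49 peaks while *DKK1*, *DKK2* and *DKK4* have 0 in sgSNHG1.

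Among the ligands, 12 of 19 had a peak in each list, and the windows held 73 peaks in sgCtrl and 54 in sgSNHG1, a ratio of 0.740 against the 0.784 of all peaks. *WNT3*, a canonical ligand, carried the highest summit of the family, at chr17:46771040-46771618. This peak lies 91 bp from an annotated start inside the gene, far from the 5′ end of the gene at base 46833154. It reached 286 fragments in sgCtrl and 185 in sgSNHG1, a relative log2 ratio of -0.43 (-0.70 to -0.16). All 5 *WNT3* peaks shared by the lists had lower relative summits in sgSNHG1, from -0.64 to -0.24, and its peak number went from 9 to 6. By fold enrichment 3 of the 5 were below 0 and 2 above, from -0.22 to 0.09, and the start-site peak had 5.92 in sgCtrl and 5.68 in sgSNHG1, with a local background of 47.5 and 31.8 fragments. One of the *WNT3* peaks missing from sgSNHG1, chr17:46831500-46832311 with 82 fragments, lies near the 5′ end of *WNT3*. It is also in the window of *WNT9B*, whose body begins 47 bp beyond *WNT3*. *WNT9B* had 8 peaks in sgCtrl and 5 in sgSNHG1, while a start-site peak within its body held 43 and 39 fragments (relative log2 ratio 0.06, interval -0.57 to 0.68).

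*WNT7B* and *WNT3A*, both ligands with roles in neural development, also had fewer peaks in sgSNHG1. Within 10 Mb of each, the ratio of peak numbers, sgSNHG1 to sgCtrl, was 0.70 and 0.73, against the 0.784 of all peaks. The *WNT7B* window held 10 peaks in sgCtrl and 4 in sgSNHG1. Its highest peak, in an intron, went from 117 to 72 fragments (relative log2 ratio -0.50) and its percentile from 64.3 to 47.0, whereas the peak at its start site, with 47 and 39 fragments, had a ratio of -0.07. *WNT3A* went from 11 peaks to 6 without a start-site peak in either list. Its 4 shared peaks had relative log2 ratios from -0.17 to 0.28, and 3 of them were above 0.

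*WNT10A* and *WNT6*, neighbours on chromosome 2 whose bodies lie 6619 bp apart, were the ligands with more peaks in sgSNHG1. *WNT10A* went from 5 to 9 peaks and *WNT6* from 7 to 9, and several of these peaks lie in the windows of both genes. A peak at the *WNT6* start site, chr2:218859880-218860266, was listed in sgSNHG1 alone, with 67 fragments (fold enrichment 3.70). The *WNT10A* peak with the highest fold enrichment (4.30 and 5.84), 3′ of the gene, held 36 fragments in sgCtrl and 50 in sgSNHG1 (relative log2 ratio 0.67), and the percentile of the gene was 63.3 and 80.6. This change of 17.3 points was -15.9 with 2 kb around the gene body, which leaves the peak out, -6.17 with 50 kb and 1.87 by summit fragments. The peak at the *WNT10A* start itself, with 71 and 59 fragments, had a ratio of -0.07 (-0.57 to 0.43).

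*WNT9A* and *WNT11* show how the readouts can part. *WNT9A* had 7 peaks in each list, and its percentile was 28.8 in sgCtrl and 51.5 in sgSNHG1, the widest difference upwards among the genes. The peak behind it, in the 3′ flank, held fewer fragments in sgSNHG1 (92) than in sgCtrl (105), but its local background went from 33.8 to 22.7 fragments. The other 3 shared *WNT9A* peaks had relative log2 ratios from -0.49 to -0.40, and by the percentile of summit fragments the change of the gene was -12.2 points. A peak within 3 kb of a *WNT9A* start, shown above with its CACGTG, was listed in sgSNHG1 alone with 61 fragments (fold enrichment 2.75). *WNT11*, a ligand of the non-canonical branch, had 8 and 4 peaks. Its start-site peak of 41 fragments was listed in sgCtrl alone, at a −log10 p of 7.90 where the limit set by the authors is 6.

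Some of the remaining ligands carried peaks of their neighbours. *WNT5B*, a non-canonical ligand, had 5 peaks in each list, but the highest, with 125 and 136 fragments, lies at the start site of *FBXL14*. Its own start-site peak shared by the lists held 46 and 36 fragments (relative log2 ratio -0.15), and a second start-site peak of 35 fragments was listed in sgCtrl alone. The only peak in the *WNT10B* window lies at the start site of *ARF3*, with 73 and 99 fragments. *WNT4* had 2 peaks in each list and no start-site peak. *WNT2B* had 5 and 3 peaks, with 40 and 39 fragments at a start-site peak within its body.

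The Frizzled genes, which encode the receptors that bind WNT ligands directly, mostly had peaks at their start sites. Of 10 Frizzled genes 9 had a peak in each list, *FZD8* being without, and 14 of the 16 sgCtrl peaks (87.5%) overlapped one of the 18 sgSNHG1 peaks, against 61.3% of all sgCtrl peaks and 79.1% of all those near a start site. *FZD6*, on chromosome 8, had the highest percentile of all 53 genes in both lists (99.4 and 99.7). Its start-site peak held 116 fragments in sgCtrl and 155 in sgSNHG1, a relative log2 ratio of 0.62 (0.27 to 0.96), and an intronic peak held 23 and 33 (0.72). *FZD3*, a receptor needed for axon guidance, had a higher start-site peak, with 279 fragments in sgCtrl and 253 in sgSNHG1 (0.06, interval -0.19 to 0.30). The median over all shared start-site peaks was 0.20, which lies within the interval of *FZD3* and below that of *FZD6*.

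*FZD7*, described as a receptor of canonical WNT signals in stem cells, went the other way. Its start-site peak held 125 and 70 fragments, a relative log2 ratio of -0.64 (-1.06 to -0.22), and a single sgCtrl peak of 2308 bp was replaced by a pair of peaks that cover 1593 bp. The local background was lower too, at 18.3 and 9.89 fragments, so that its fold enrichment was 6.51 in sgCtrl and 6.52 in sgSNHG1. At *FZD9* both start-site peaks, of 57 and 54 fragments, were listed in sgCtrl alone, while 2 peaks upstream were in both lists. *FZD1*, *FZD2*, *FZD4*, *FZD5* and *FZD10* had start-site peaks in both lists. At the one of each gene with the most sgCtrl fragments, the relative log2 ratio ran from -0.02 to 0.42 with intervals that included 0 and 0.20. *FZD5* had 2 further start-site peaks, of 37 and 26 fragments (-0.31) and of 39 and 31 fragments (-0.13), and the summed length of its peaks was 1655 and 862 bp.

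**Figure D2:**
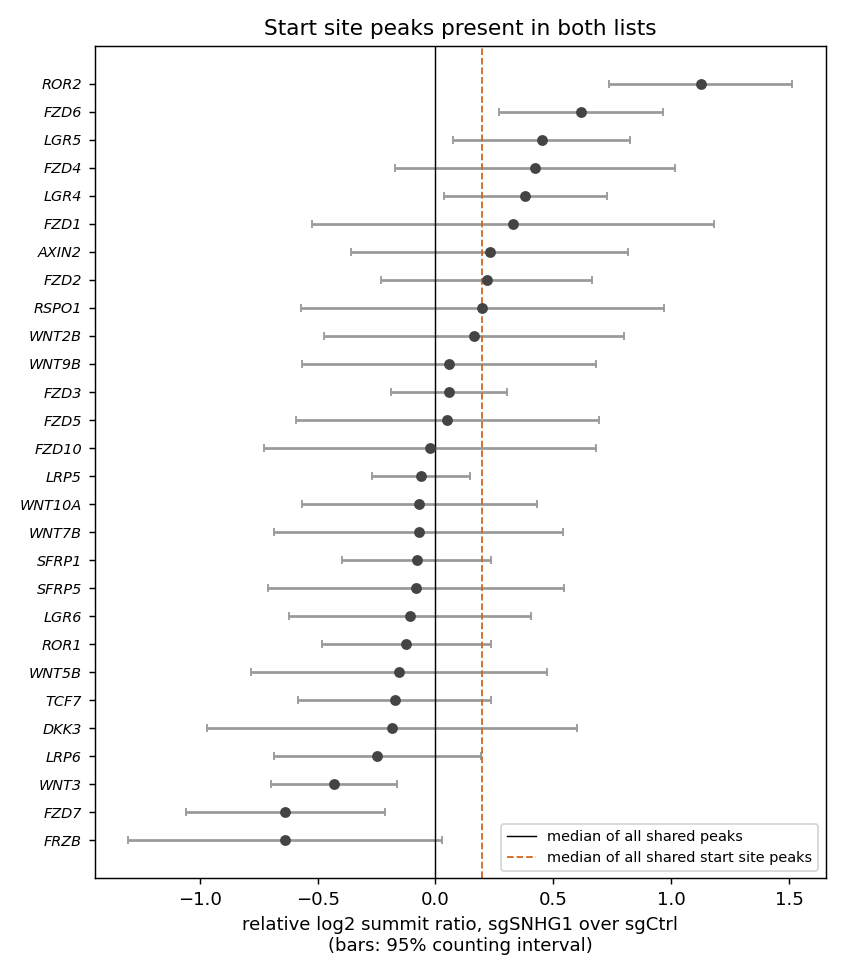
Each point is the relative log2 ratio of summit fragments (sgSNHG1 over sgCtrl) at the start-site peak with the most sgCtrl fragments of each of 28 genes, with bars for the 95% counting interval, a solid line at the median of all shared peaks and a dashed line at 0.20, the median of all shared start-site peaks. *ROR2* stands apart at the top with 1.13, and *FRZB* and *FZD7* are lowest at -0.64.

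Among the co-receptors, *LRP5* had the most peaks of the 53 genes and *ROR2* the highest relative ratio at a start site. The *ROR2* start-site peak was also the only shared peak among all these genes with a relative change of 2-fold or more upwards (1 of 140, against 1.42% of all shared peaks), and none changed by that much downwards (against 0.424%). The peak, chr9:91948969-91950206 in sgCtrl and chr9:91948705-91950235 in sgSNHG1, held 81 and 154 fragments (relative log2 ratio 1.13, interval 0.74 to 1.51). Its local background was 11.0 and 17.6 fragments and its fold enrichment 6.81 and 8.34. The summit lay at base 91949934 in sgCtrl and at base 91949495 in sgSNHG1. Of the 13 *ROR2* peaks found in both lists 12 had a relative log2 ratio above 0, with a median of 0.34, although the number of peaks went from 20 to 17. By fold enrichment, which divides by a local background that was higher too, 7 of the 13 were above 0 and the median was 0.0092. Among the intronic peaks with higher ratios were one of 65 and 91 fragments (0.68) and one of 39 and 53 (0.64). The percentile of *ROR2* was 87.9 and 90.9 by fold enrichment, whereas by summit fragments it was higher by 21.0 points in sgSNHG1.

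*ROR1*, which encodes the related kinase, had a high start-site peak of 140 fragments in sgCtrl and 112 in sgSNHG1 (relative log2 ratio -0.12, interval -0.48 to 0.24), and its percentile was 97.1 and 96.1. Its window held 4 and 6 peaks. An intronic *ROR1* peak, chr1:63842987-63843550, was listed in sgCtrl alone with 46 fragments (fold enrichment 7.05, −log10 p 26.4), whereas 95.4% of all sgCtrl peaks at a −log10 p of 20 or more were found in the sgSNHG1 list. *LRP6* had 4 and 2 peaks, and its start-site peak held 98 and 72 fragments (-0.25, interval -0.68 to 0.19).

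*LRP5*, the co-receptor of canonical signalling best known for its role in bone mass, had many peaks along its body. It held 48 peaks in sgCtrl and 49 in sgSNHG1, which covered 19.9% and 16.3% of its window against a median of 2.67% and 2.34% over genes with a peak. It ranked 29 and 14 by peak number among all genes. Of its sgCtrl peaks 36 lie in introns, 7 in exons and 5 at start sites. The highest, around the first of the summits shown above, reached 400 fragments in sgCtrl and 334 in sgSNHG1 (relative log2 ratio -0.06, interval -0.27 to 0.15). Summits along the body were lower in sgSNHG1, since 35 of the 39 shared peaks had a ratio below 0, with a median of -0.25. By fold enrichment 21 were below 0 and 18 above, since the local background was lower as well. The lowest ratio was that of the other peak shown above, chr11:68412671-68413019 in an intron, with 186 and 87 fragments (-0.90), followed by an intronic peak of 175 fragments at chr11:68330759-68331582 (-0.78).

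The local background in *LRP5* was itself high, with a median of 61.7 fragments in sgCtrl and 43.7 in sgSNHG1 against 13.0 and 12.1 over all peaks. In the 1 Mb on either side of the window it was 35.2 and 29.7 over 294 and 236 peaks. With no input library, more copies of the region and more acetylation per copy cannot be told apart. Because *LRP5* supplies 39 of the 140 shared peaks, it decides the median over all the genes, which was -0.07 with it and 0.031 without it.

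**Figure D3:**
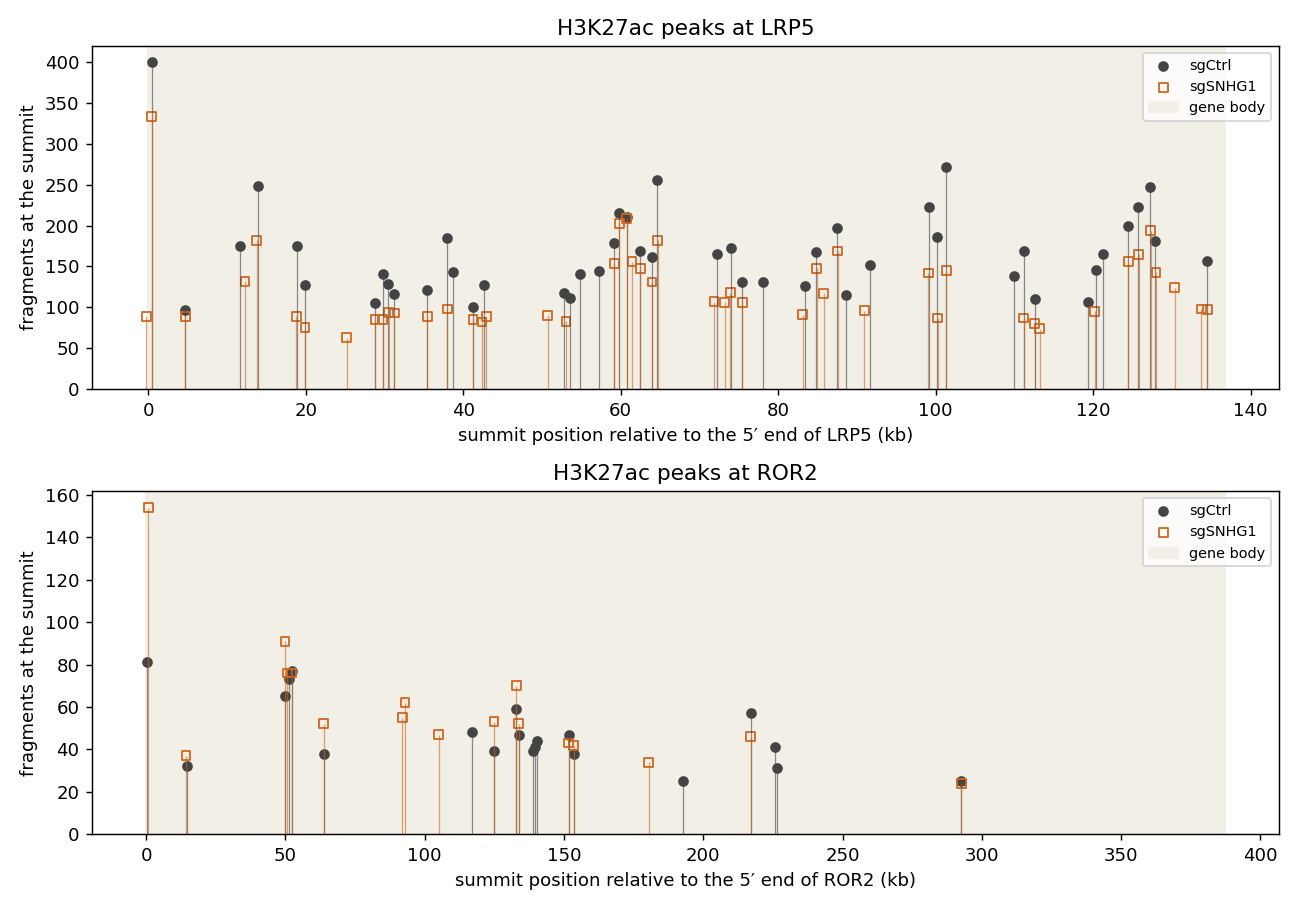
Each stem is an H3K27ac peak, drawn at its summit position relative to the 5′ end of the gene (kb) and at the number of fragments over the summit, with filled points for sgCtrl and open squares for sgSNHG1 (1 pooled list each). At *LRP5* most squares sit below the points along the gene body, down to 87 against 186 fragments, whereas at *ROR2* the start-site square of 154 stands above the point of 81.

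Of the R-spondins only *RSPO1* had peaks, 2 in sgCtrl and 1 in sgSNHG1, with 27 fragments at its start site in both lists (relative log2 ratio 0.20, interval -0.57 to 0.97). All 3 R-spondin receptor genes had start-site peaks in both lists. *LGR4*, on chromosome 11, had the highest percentile after *FZD6* (97.9 and 98.6), with 126 and 143 fragments at its start site (0.38, interval 0.04 to 0.73). A second peak in its window, with 51 and 68 fragments, lies at the start site of *CCDC34*. *LGR5*, a WNT target gene that marks stem cells in several epithelia, had 105 and 125 fragments at a start-site peak that also lies near an annotated start of *TSPAN8* (0.45, interval 0.08 to 0.82). The 3 shared intronic *LGR5* peaks had ratios from 0.37 to 0.70, and 1 of them is shown above with its TCF/LEF sequence. The peak number of *LGR5* went from 5 to 7. Within 10 Mb of *LGR5* the lists held 119 and 119 peaks, and the shared peaks there had a median relative log2 ratio of 0.29. The start-site intervals of *LGR4* and *LGR5* both include 0.20, the median of all shared start-site peaks.

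*LGR6* differed from both, with the widest difference downwards in percentile among the genes (76.3 in sgCtrl and 44.7 in sgSNHG1). The peak behind it, in the last part of the gene at chr1:202317903-202319152, held 67 and 38 fragments (relative log2 ratio -0.62). Its start-site peak with the most fragments held 68 and 55 (-0.11, interval -0.62 to 0.41), and the peak number went from 11 to 8. The difference rests on that 1 peak, which had the highest fold enrichment of the window in both lists. With 50 kb around the gene body, which adds peaks outside the window, the change was 0.82 points. By the percentile of summit fragments, set by other peaks of 73 and 67 fragments, it was -1.12.

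The secreted inhibitors held 20 peaks in sgCtrl and 15 in sgSNHG1, a ratio of 0.750 against the 0.784 of all peaks, and 3 of the 4 Dickkopf genes had peaks in sgCtrl alone. The *DKK1* peak, chr10:52314676-52314974 within its start region, had 24 fragments (fold enrichment 4.24, −log10 p 9.99). The *DKK2* peak, chr4:107270094-107270960 in an intron, had 36 fragments (fold enrichment 6.28, −log10 p 19.7), which placed it at percentile 85.3. The *DKK4* peak, chr8:42383200-42383733 upstream of the gene, had 33 fragments (fold enrichment 3.34, −log10 p 9.58). These are low peaks in a list whose lowest summit has 19 fragments. Of all sgCtrl peaks with a −log10 p from 6 to 10 only 24.3% were found in sgSNHG1, and of those from 10 to 20 52.6% were. *DKK3*, whose protein does not act on LRP5 or LRP6 as the other Dickkopf proteins do, had 6 peaks in each list, the highest in sgCtrl with 129 fragments there and 113 in sgSNHG1.

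*FRZB*, which encodes a secreted Frizzled-related protein, had the lowest ratio among the inhibitors with a peak in both lists. Its single peak, over the start site at chr2:182866096-182866733, held 50 and 28 fragments and was 638 and 266 bp long, a relative log2 ratio of -0.64 (-1.31 to 0.03). Its percentile was 89.6 and 70.6. *SFRP1* had a start-site peak of 177 and 146 fragments (-0.08, interval -0.40 to 0.24) and went from 7 to 5 peaks, with intronic peaks at ratios of -0.34, -0.25 and -0.05. *SFRP5* had 45 and 37 fragments at its start site (-0.08). The only peak in the *SFRP4* window lies at the start site of *EPDR1*, with 69 and 66 fragments.

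*LEF1*, *DKK2* and *SFRP2* lie on the long arm of chromosome 4, where the sgSNHG1 list was depleted of peaks in general. Within 10 Mb of each, the ratio of peak numbers, sgSNHG1 to sgCtrl, was 0.51, 0.51 and 0.40, and the median relative log2 ratio of the shared peaks was -0.40, -0.39 and -0.54. The missing *DKK2* peak therefore lies in a region where many peaks were missing, and fewer copies of the arm and less acetylation per copy cannot be told apart without an input library. *LEF1* and *SFRP2* had no peak in either list.

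At the genes of the nuclear response, *AXIN2*, the negative regulator commonly read as a measure of β-catenin activity, had 46 fragments at its start site in sgCtrl and 47 in sgSNHG1 (relative log2 ratio 0.23, interval -0.36 to 0.82). Its other 2 peaks, of 36 and 43 fragments, were listed in sgCtrl alone. *TCF7*, which encodes a TCF/LEF factor, had 6 and 7 peaks. Its percentile was 50.5 and 67.5, with a start-site peak of 48 and 53 fragments (0.34), whereas its start-site peak with the most fragments held 110 and 85 (-0.17, interval -0.58 to 0.24). *LEF1*, which encodes another factor of the family, had its nearest sgCtrl peak 57172 bp away.

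No peak stood in either list for 14 of the 53 genes, namely the ligands *WNT1*, *WNT2*, *WNT5A*, *WNT7A*, *WNT8A*, *WNT8B* and *WNT16*, the receptor gene *FZD8*, the R-spondins *RSPO2*, *RSPO3* and *RSPO4*, the inhibitors *SFRP2* and *WIF1*, and *LEF1*. The nearest peak to their bodies was between 13198 and 1093829 bp away in sgCtrl and between 13214 and 1191977 bp away in sgSNHG1. *WNT5A*, the best studied non-canonical ligand, was the farthest from any peak. For comparison, 81.2% of all genes had a peak in sgCtrl and a further 2.14% in sgSNHG1 alone. Among the 53 genes these shares were 73.6% and 0%. A summit below 19 fragments in sgCtrl or 18 in sgSNHG1 was never listed, and a higher local background raises the number needed. Weaker acetylation at these genes could therefore go unlisted and is not shown to be absent.

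Of the 214 sgCtrl peaks in the windows 140 were found in the sgSNHG1 list (65.4%, Wilson interval 58.8 to 71.5, against 61.3% of all peaks), and of the 187 sgSNHG1 peaks 148 were found in sgCtrl (79.1%, interval 72.8 to 84.4, against 79.4%). Without *LRP5* these shares were 60.8% of 166 sgCtrl peaks and 76.1% of 138 sgSNHG1 peaks. The intervals count each peak as independent, although 48 of the 214 and 49 of the 187 lie at *LRP5*. The share of sgCtrl peaks found in sgSNHG1 was higher for stronger peaks. It was 9 of 40 at a −log10 p from 6 to 10 (22.5%, against 24.3%), 70 of 110 from 10 to 20 (63.6%, against 52.6%) and 61 of 64 from 20 (95.3%, against 95.4%). In the other direction it was 25 of 34 (73.5%, against 59.5%), 81 of 111 (73.0%, against 77%) and 42 of 42 (100%, against 96.5%). With each peak counted under 1 gene, start-site peaks were found again in 41 of 50 cases (82.0%), and those in introns in 69 of 111, in exons in 15 of 26 and in flanks in 9 of 21. Over all sgCtrl peaks the shares were 79.1% near a start site and 52.8% elsewhere, so that the same order holds in general. Over the 140 shared peaks the relative log2 ratio ran from -0.90 to 1.13 with an SD of 0.37, against an SD of 0.42 over all shared peaks. It was above 0 for 58 peaks and below 0 for 82, and without *LRP5* above 0 for 54 and below 0 for 47.

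The start-site peaks of these genes differed from start-site peaks in general in a pair of descriptive values. Over the 47 shared peaks of their windows near any start site the median relative log2 ratio was -0.04. Over 16229 shared start-site peaks of all genes it was 0.20, and over the 43 at these genes' own start sites -0.07. Shared peaks away from any start site had -0.11 over 93 peaks, against -0.11 over 22448. The median GC content of 500 bp around the summit was 71.4% at the 56 sgCtrl peaks of their windows near a start site of any gene, against 66.0% at all start-site peaks. CTTTGAA or CTTTGAT, searched on both strands in 300 bp around each summit, was found in 10 of 214 sgCtrl peaks of these genes (4.67%, against 3.00% of all peaks) and in 7 of 187 sgSNHG1 peaks (3.74%, against 3.12%). CACGTG was found in 4.21% of their sgCtrl peaks, against 6.49%, and AGATAA in 2.34%, against 2.54%. At this number of peaks these shares rest on 10 or fewer peaks each.

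The other 49 genes of the WNT pathway examined, from ligand secretion to the β-catenin destruction complex and planar polarity, were acetylated more often than the ligands, receptors and inhibitors, with a peak at 46 in sgCtrl and at 44 in sgSNHG1 (93.9% and 89.8%, against 81.2% and 79.1% of all genes). Their median change in percentile was -1.23, and 15 of 43 with a peak in both lists were higher in sgSNHG1 (34.9%, against 40.5% of all genes). The percentile was higher by 20 points or more at *DVL1*, which passes the signal on from Frizzled receptors (41.5 to 67.4), and at *KREMEN2*, a Dickkopf receptor (55.8 to 76.4), which is 4.65% of the 43 against 2.43% of all genes. It was lower by as much at *NKD1*, a negative-feedback regulator (70.2 to 48.8), and at *SOST*, which encodes the LRP5 and LRP6 inhibitor sclerostin (78.4 to 56.3), again 4.65% against 4.62%. *DAAM2*, *SP5* and *TNIK* had peaks in sgCtrl alone (6.12%, against 4.25%), and *TPBG* in sgSNHG1 alone (2.04%, against 2.14%).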

How the data were processed

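The H3K27ac ChIP-seq samples of the study, 2 of sgCtrl and 2 of sgSNHG1, entered the analysis. Per the labels and the study's methods, adaptors were trimmed with cutadapt, 75-bp paired reads were aligned to GRCh38 with BWA, and the authors merged both replicates before they ran MACS2 at a p-value of 1e-06. No input library is given in the sources used here. The deposited lists hold a fold enrichment (a ratio to local background), the −log10 of the p-value, and a score from the authors' caller that was not used.

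Gene models were those of GENCODE release 44. The genes examined and the pathway, marker and motif lists were chosen with earlier results of these data known. The genes described in full were those with a peak or start-site peak in 1 list only, a change of 20 percentile points, the 5 highest percentiles, the 5 highest peak numbers, or a place on the long arm of chromosome 4. *WNT3*, *FZD7* and *FRZB* were added after their values were seen. Peaks were counted as shared at an overlap of 1 bp. Summit fragments were solved from fold enrichment (pseudocount 1) and p-value, and came out whole within 0.05 for 99.997% and 99.998% of peaks. Where several peaks overlapped, the longest overlap was taken. Replicate samples were pooled before deposit, so no test was made, and intervals cover counting error only. Alternatives were a −log10 p of 10, lists of equal size, windows of 2 and 50 kb, start sites within 1 kb or overlapped, other overlaps, and other measures. *LRP5* was left out as an alternative chosen after seeing the data. Python 3.11.15, numpy 2.4.6, pandas 2.3.3, scipy 1.17.1, pysam 0.24.0 and bedtools 2.31.1 were used, and the computations were tested on simulated data.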

Additional observations from a re-analysis of the deposited data

How the results depend on the processing

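Of 210 recomputed percentile changes of single genes, 197 stayed on the same side of 20 points, and 26 summary values stayed within the limits of the main value. When the peak had to overlap the start itself, 18 of the 53 genes had a start-site peak in sgCtrl and 18 in sgSNHG1. Within 3 kb these were 31 and 30. Of all genes, 32.8% in sgCtrl and 34.1% in sgSNHG1 had a peak over the start, against 69.4% and 67.6% within 3 kb. The median change in percentile, 0.48, changed sign at a −log10 p of at least 10 (-0.54) and with 2 kb (-0.52) and 50 kb (-0.15) around the gene body. Under these settings the median of all genes was lower still, at -1.24, -0.68 and -0.65. The sign also changed by summit fragments (-1.05) and covered length (-0.34), where the median of all genes was higher, at -0.03 and 0.52. With an overlap of 50% of both peaks, 52.8% of sgCtrl peaks were found in sgSNHG1 (against 51.1% of all peaks). With lists of equal size the share was 77.1% (against 71.1%). The shares of sgSNHG1 peaks found in sgCtrl were 60.4% (against 65.2%) and 72.7% (against 72.8%). The median relative log2 ratio of shared peaks was 0.0091 by fold enrichment and 0.031 without *LRP5*, against -0.07. Among the genes that changed by 20 points, the sign turned for *LGR6* with 50 kb around the gene body (0.82) and for *WNT9A* with 2 kb (-0.035), 50 kb (-4.91) and by summit fragments (-12.2). A further 33 values of changes under 20 points had the opposite sign under another setting, among them *WNT10A* (-15.9 with 2 kb), *WNT6* (17.3), *WNT11* (16.0), *WNT4* (-18.7) and *FZD2* (-10.2) with 50 kb, and *TCF7* (-7.98) by summit fragments. The cause was not tested. No paired analysis was possible because peaks had been called on the merged samples of a group, and leaving out a replicate could not be run for the same reason. The lists hold no summit below 19 and 18 fragments, and the number needed is larger where the local background is higher.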

Other observations

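*RNF43* and *ZNRF3*, which encode the ubiquitin ligases that remove Frizzled receptors and that R-spondins block, had 2 and 2 peaks and 7 and 6 peaks in sgCtrl and sgSNHG1, with percentiles of 77.2 and 85.1 for *RNF43* and of 94.9 and 91.7 for *ZNRF3*. *CTNNB1*, the gene of β-catenin, had a percentile of 97.8 and 96.3 with highest summits of 71 and 72 fragments. *TCF7L1* and *TCF7L2*, the TCF/LEF genes outside the set examined, had higher summits in sgSNHG1, of 95 and 147 fragments and of 151 and 202 fragments. These genes were chosen after their values were seen, and the values have no replicate check.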
